A study of Mus musculus with 10 samples.

Results

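Myc and Myb, the genes of a pair of growth-promoting transcription factors, were followed through the ATAC-seq peak lists of a GATA1-driven erythroid time course, together with Hbs1l, the neighbour of Myb. Members were the peak summits lying from 200 kb upstream to 200 kb downstream of the annotated Myc and Myb genes, and for Myc also those up to 2 Mb downstream. Summits of all libraries were extended by 250 bp on each side and merged where they overlapped, which gave 57 member regions of 28981 in the genome. The Myc window held 13 of them, the far downstream stretch of Myc held 20, and the Myb window, which also covers the starts of Hbs1l and Ahi1, held 24. Together they took 228 of the 146939 summits listed.

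The cells were G1E-ER4 (G1ER), a mouse erythroid progenitor line that is Gata1-null and carries a GATA1-ER fusion, an estrogen-responsive GATA1 that β-estradiol activates. Every library, 0 h included, came from this same Gata1-null, GATA1-ER-carrying line, grown in IMDM with 15% FBS, SCF at 50 ng/mL and EPO at 2 U/ml. The 5 groups were untreated cells (0 h) and cells given 1e-07 M β-estradiol for 2, 6, 12 or 24 h. Each group had 2 libraries, made from about 50000 cells apiece, 10 libraries in all. The cells are cultures of a line, not erythroblasts from marrow, and nothing in the labels says that the libraries of a time point came from separate cultures, so the spread between them may be technical.

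MYC dimerizes with MAX on E-boxes and drives ribosome production and cell-cycle entry, and MYB keeps blood progenitors dividing. Both genes are known to be shut down as erythroid cells mature, and GATA1 is a known repressor of Myc. The stretch between Myb and Hbs1l is known for enhancers that contact Myb in erythroid progenitors, and its human counterpart for variants linked to fetal hemoglobin. HBS1L, encoded at the other end of that stretch, is a GTPase that helps rescue stalled ribosomes. Far downstream of Myc lies a cluster of enhancers used by blood stem and progenitor cells, beyond the long noncoding RNA gene Pvt1.

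Below is the reference sequence (mm10, plus strand) around the centres of the 5 regions between Myb and Hbs1l, over 1 kb from a coding start, that were listed in at least 7 libraries, because they form a row in most libraries. Capitals mark the GATA letters AGATAA and TGATAA, read on either strand (TTATCT and TTATCA on the other). Distances are from the Myb start, and positions run from chr10:21196737-21196937, chr10:21221438-21221638, chr10:21228600-21228800, chr10:21241957-21242157 to chr10:21268848-21269048 in the order shown. None of the 5 windows overlaps an annotated exon, and the 3 in the middle lie in an intron of the noncoding gene Gm33728.

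Myb -35.9 kb: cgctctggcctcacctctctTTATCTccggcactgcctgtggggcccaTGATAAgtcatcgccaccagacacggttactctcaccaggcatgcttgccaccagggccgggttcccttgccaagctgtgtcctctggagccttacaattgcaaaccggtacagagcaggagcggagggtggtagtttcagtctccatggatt
Myb -60.6 kb: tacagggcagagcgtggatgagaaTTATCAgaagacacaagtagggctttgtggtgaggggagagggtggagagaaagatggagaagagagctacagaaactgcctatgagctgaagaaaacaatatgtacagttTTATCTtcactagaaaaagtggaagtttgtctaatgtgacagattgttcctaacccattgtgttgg
Myb -67.7 kb: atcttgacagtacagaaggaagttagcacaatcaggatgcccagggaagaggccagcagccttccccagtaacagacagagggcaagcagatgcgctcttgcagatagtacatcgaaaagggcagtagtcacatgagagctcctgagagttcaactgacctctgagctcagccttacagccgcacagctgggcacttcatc
Myb -81.1 kb: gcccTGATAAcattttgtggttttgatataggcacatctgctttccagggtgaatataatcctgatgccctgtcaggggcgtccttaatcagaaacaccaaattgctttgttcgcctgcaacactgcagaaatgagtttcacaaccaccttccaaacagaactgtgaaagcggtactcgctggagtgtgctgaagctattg
Myb -108.0 kb: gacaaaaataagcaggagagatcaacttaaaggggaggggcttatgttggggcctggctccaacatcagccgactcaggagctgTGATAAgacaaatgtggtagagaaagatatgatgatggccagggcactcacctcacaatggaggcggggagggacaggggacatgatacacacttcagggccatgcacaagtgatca

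GATA letters were found in 4 of these 5 windows, with 2 matches each at -35.9 and -60.6 kb, 1 each at -81.1 and -108.0 kb and none at -67.7 kb. The letters TGTGGT, read by RUNX factors, were also found on either strand at -60.6, -81.1 and -108.0 kb.

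The next 2 windows were chosen in different ways. The first is the 1 region of the Myb window, over 1 kb from a coding start, that all 10 libraries listed. The first lies at chr10:21054877-21055077 inside Ahi1, where 97 of its 201 bases are an Ahi1 exon (chr10:21054981-21055143) and the rest intron. The second, at chr15:63736475-63736675, lies in an exon of the noncoding gene 4930449C09Rik. Its GATA letters are the end of a TAL1-GATA composite (CTG, 7 or 8 bases of any kind, then AGATAA or TGATAA). It was picked among the members lost at 24 h, described below, because it holds this composite. The other members lost at 24 h held none.

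Ahi1, 106.0 kb downstream of the Myb start: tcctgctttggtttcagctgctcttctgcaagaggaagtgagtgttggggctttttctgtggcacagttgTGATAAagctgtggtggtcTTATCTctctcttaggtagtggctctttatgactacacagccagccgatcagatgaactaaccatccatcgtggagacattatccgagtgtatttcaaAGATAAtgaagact
1751.2 kb downstream of the Myc start: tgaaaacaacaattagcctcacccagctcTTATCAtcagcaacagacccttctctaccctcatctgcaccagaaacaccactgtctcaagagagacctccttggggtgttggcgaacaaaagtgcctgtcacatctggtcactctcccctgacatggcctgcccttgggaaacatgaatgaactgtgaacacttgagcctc

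The promoters of Myb (minus strand) and Hbs1l (plus strand) are given from RefSeq (GRCm38.p6), at chr10:21160935-21161234 and chr10:21295729-21296028, each with 250 bases before and 50 after the start. No entry for Myc was matched among 32851 promoters, so 2 of the 3 genes have one here.

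Myb promoter: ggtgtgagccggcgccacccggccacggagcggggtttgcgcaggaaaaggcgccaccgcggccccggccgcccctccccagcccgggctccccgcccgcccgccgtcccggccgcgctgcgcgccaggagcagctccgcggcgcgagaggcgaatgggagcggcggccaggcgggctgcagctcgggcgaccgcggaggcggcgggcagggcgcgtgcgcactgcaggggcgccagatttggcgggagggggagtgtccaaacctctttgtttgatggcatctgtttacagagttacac
Hbs1l promoter: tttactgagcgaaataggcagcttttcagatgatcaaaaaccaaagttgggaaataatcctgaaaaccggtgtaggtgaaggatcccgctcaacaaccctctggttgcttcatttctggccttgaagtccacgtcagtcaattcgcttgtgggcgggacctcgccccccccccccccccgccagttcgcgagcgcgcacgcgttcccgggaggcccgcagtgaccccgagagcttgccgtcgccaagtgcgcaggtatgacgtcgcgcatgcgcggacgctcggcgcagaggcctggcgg

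Neither promoter held GATA letters, which 18.6% of all promoters of this length hold, and neither held the E-box CACGTG, which 7.15% hold. No match says only that these letters are not in this window.

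The libraries differed in list length, from 10698 peaks in library 2 at 24 h to 19859 in library 2 at 6 h. The lists hold summits and a score, −log10 of the q-value from MACS2, with no read counts, so library depth is unknown. Because the score rises with depth, a region is given below by its score percentile, the percent of peaks in the same list with a lower score. The percentile still depends on the length of the list, so a rank counted from the top of the list can order the libraries otherwise. As a check of the cell type, summits within 1 kb of the start of the erythroid gene Epor, the erythropoietin receptor, were listed in all 10 libraries, those of Klf1 and Gfi1b in 4 each and of Tal1 in 2. Those of Alas2, Slc4a1 and Hba-a1 were in none, and Hbb-b1 had no entry under that name in the annotation used. None of the 9 markers of T, B, myeloid, mast and liver cells was listed in any library. Because erythroid starts were absent as well, an absent start summit does not exclude a cell type.

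The map of summit regions around Myb shows where the members lie and how high each stood in its list.

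**Figure D1:**
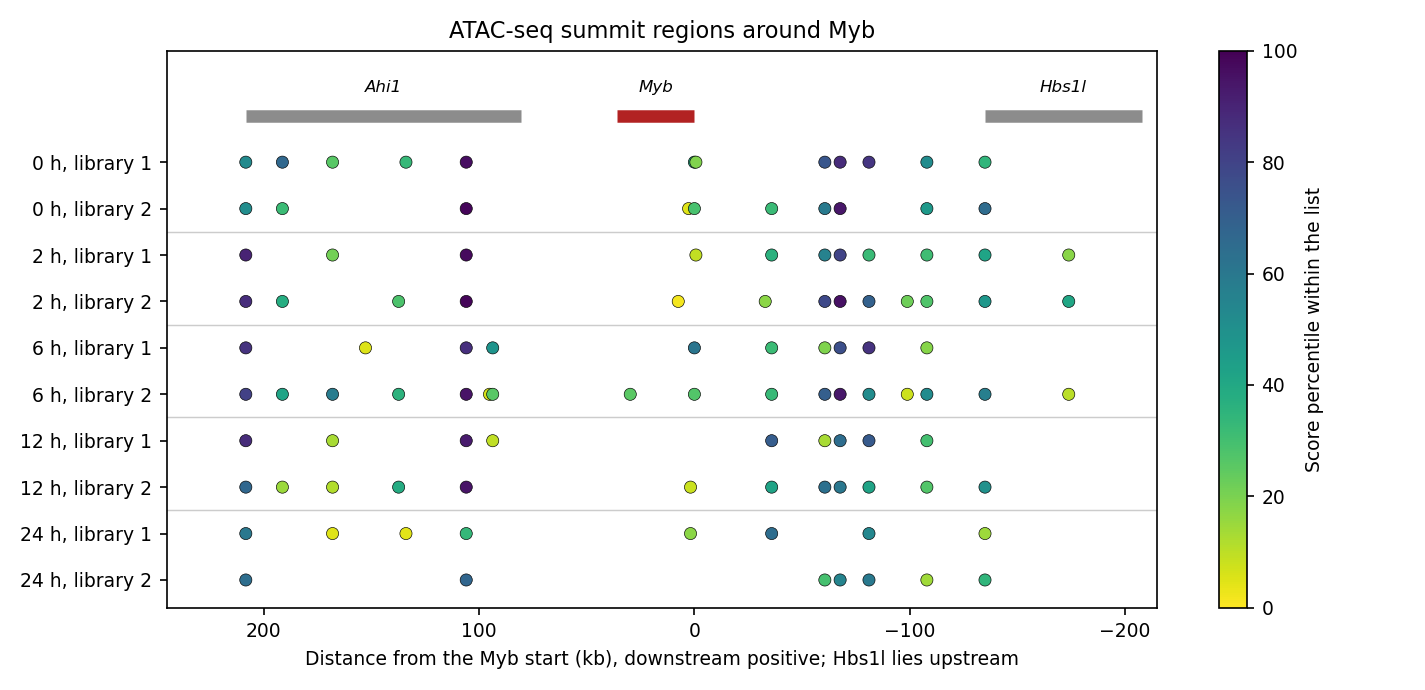
Summit regions around Myb by distance from the Myb start in kb (x axis, transcription runs to the left) and by library (y axis), coloured by score percentile within the list, with gene spans as bars on top. The Ahi1 region at 106.0 kb is dark (86.5 or higher) in the 8 libraries up to 12 h and lighter (33.5 and 67.5) at 24 h. The region at the Myb start is listed at 0 and 6 h only. Dots that nearly overlap its place are a region 0.7 kb upstream at 2 h and one 1.8 kb inside the gene at 12 and 24 h.

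A summit region at the Myb start (chr10:21160691-21161305) was listed before treatment and not late in the course. Its score percentile was 40.3 and 29.2 in the 0 h libraries and 61.1 and 27.3 after 6 h, and it was in neither library at 2, 12 or 24 h. Within 1 kb of the Myb start a summit was listed in 2 libraries at 0 h, 1 after 2 h, 2 at 6 h and none at 12 or 24 h, the 2 h one standing 0.7 kb upstream at a percentile of 9.3. By the rule that both libraries of one time and neither of the other must list it, the Myb start was lost at 12 and 24 h, calls made for 0.316% and 0.541% of 21829 protein-coding genes. Of these genes, 12110 had no start summit in any library and so could not be called lost. With 2 libraries against 2, no exact permutation test can go below p = 0.333, so these calls carry no test. Library 2 at 12 h and library 1 at 24 h instead listed a weak summit 1.8 kb inside the gene, in an intron, at percentiles of 8.0 and 17.3.

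Upstream of Myb, 5 regions stood in a row over 72.1 kb, at 35.9, 60.6, 67.7, 81.1 and 108.0 kb from the start, in 7, 9, 9, 9 and 9 libraries. Of 3362 regions of the genome that lay over 1 kb from any coding start and were listed in at least 7 libraries, 60 (1.78%) belonged to a stretch of 5 within 75 kb. The row was chosen after it was seen, so this share is a description and does not measure how rare the row is. The region at 67.7 kb had percentiles of 87.7 and 93.9 before treatment, 79.9 and 95.4 after 2 h, 75.9 and 93.7 after 6 h, 64.8 and 60.3 by 12 h, and 54.7 in library 2 at 24 h, library 1 not listing it. Every library at 12 and 24 h thus lay below all 6 earlier libraries. The region at 60.6 kb gave 73.2 and 59.3 before treatment, 56.0 and 77.8 after 2 h, 19.5 and 70.1 after 6 h, 12.9 and 63.4 by 12 h, and 29.3 in library 2 at 24 h, again without library 1. The libraries of 6 and 12 h stood far apart, with library 2 in both cases among the 0 h values by percentile and library 1 well below them.

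Of the other 3 of the row, the region at 81.1 kb stood at 84.6 in library 1 at 0 h, was not listed in library 2, and stood at 32.3 and 69.4 after 2 h, 85.5 and 51.8 after 6 h, 71.9 and 42.1 by 12 h, and 53.7 and 59.4 at 24 h, inside the earlier range. At 108.0 kb the percentiles were 51.6 and 46.3 at 0 h, between 18.2 and 52.0 from 2 to 12 h, and 14.1 in library 2 at 24 h. The region at 35.9 kb, not listed in library 1 at 0 h and at 32.2 in library 2, reached 70.8 and 42.0 at 12 h and 64.7 in library 1 at 24 h. The percentiles at 12 and 24 h lay above all of those up to 6 h, which ran from 31.8 to 36.3, but library 2 at 24 h did not list the region. By rank from the top of the list, library 2 at 12 h (8006) stood just below library 2 at 0 h (7908).

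Hbs1l, whose start lies 135.0 kb upstream of that of Myb and is transcribed the other way, had a start region (chr10:21295519-21296305) at every time point. It was listed in both libraries at 0, 2 and 24 h and in library 2 alone at 6 and 12 h. The percentiles were 34.5 and 65.0 before treatment, 41.7 and 47.1 after 2 h, 57.4 and 49.8 in the 6 and 12 h libraries that had it, and 14.8 and 34.7 at 24 h. Library 1 at 24 h lay below every other value, and library 2 lay just above the lower 0 h library.

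At Ahi1, which lies downstream of Myb and encodes a protein of the cilium, 2 regions were listed in all 10 libraries. The exon-overlapping region at 106.0 kb (chr10:21054655-21055431) gave 96.3 and 98.6 before treatment, 97.6 and 98.6 after 2 h, 86.5 and 94.8 after 6 h, 92.8 and 94.7 by 12 h, and 33.5 and 67.5 at 24 h. Both 24 h libraries lay below the 8 others. On normal scores of the rank among the 6234 regions listed in all 10 libraries, in units of 1 SD, the 24 h minus 0 h difference was -2.36 ± 0.575 (SE), which did not pass limma's test after adjustment over all regions (adjusted p = 0.724). With the replicate number as a block it did not pass either (SE 0.4855, limma adjusted p = 0.195). The start of Ahi1 (chr10:20952015-20952969) gave 52.5 and 51.3 before treatment, 90.6 and 87.3 after 2 h, 85.5 and 80.5 after 6 h, 87.7 and 66.9 by 12 h, and 59.9 and 64.4 at 24 h. By percentile all 8 treated libraries thus lay above both 0 h libraries, but the 2 h minus 0 h difference of 1.38 ± 0.55 (SE) had a limma adjusted p of 1. The 24 h minus 0 h difference was 0.34 ± 0.55 (SE, limma unadjusted p = 0.545). No region passed this limma fit at any time point (0% called). At 2, 6, 12 and 24 h, 198, 173, 193 and 260 of the 6234 had an unadjusted limma p under 0.05. Each is a smaller share than the 0.05 expected with no change. With the replicate number as a block, 371, 337, 365 and 467 of the 6234 had an unadjusted limma p under 0.05, each a larger share than 0.05. That fit also called 0 regions after adjustment.

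Around Myc, regions lay almost wholly downstream. Only 2 of the 13 near regions were upstream, at 0.1 and 1.8 kb from the start, and none from there to 200 kb, while 7 lay inside Pvt1 introns.

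**Figure D2:**
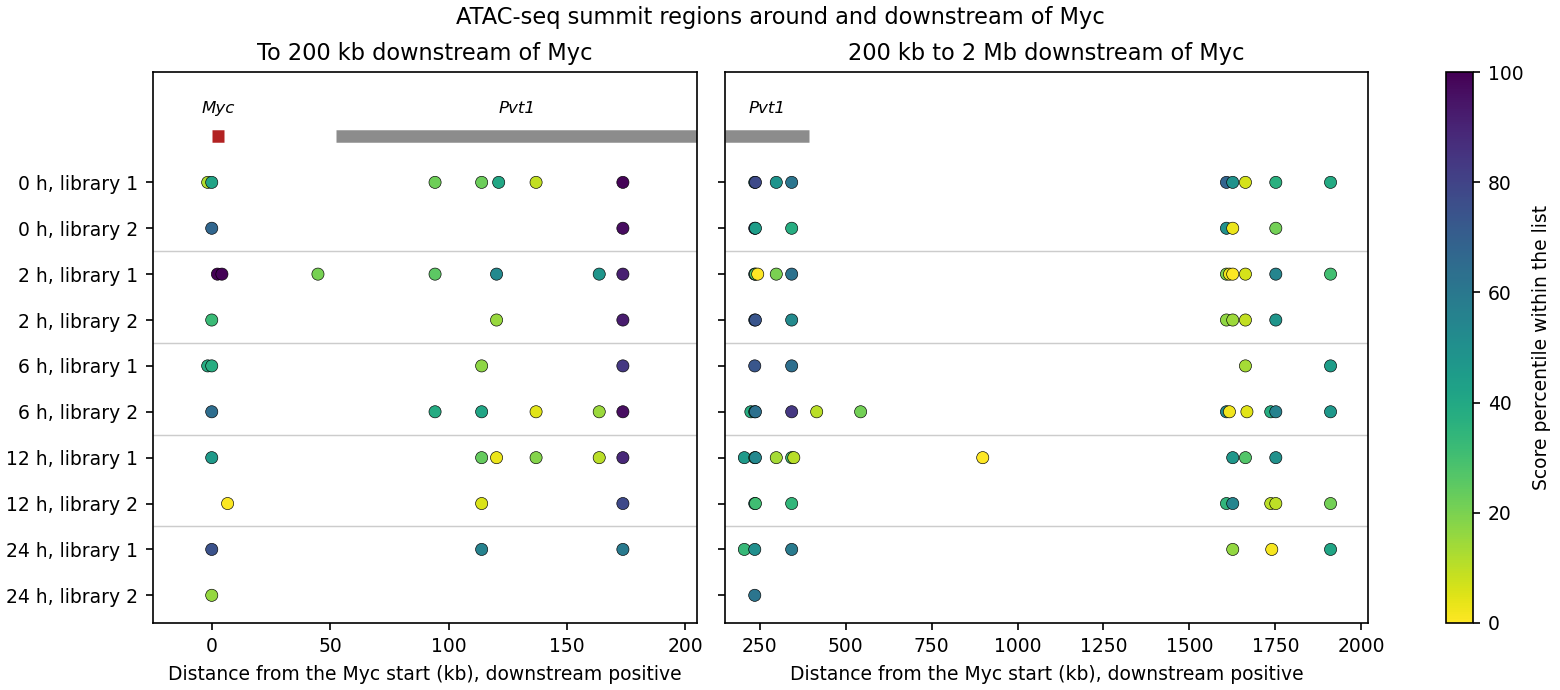
Summit regions from just upstream of Myc to 200 kb downstream (left) and from 200 kb to 2 Mb downstream (right), by distance from the Myc start in kb (x axes) and library (y axis), coloured by score percentile, with Myc and Pvt1 as bars. The region at 173.7 kb is dark at 0 h (99.2 and 96.8) and stands at 59.2 in the only 24 h library that lists it, and no region in 2 or more libraries fills the stretch from 343.3 to 1607.7 kb.

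The Myc start region (chr15:61984831-61985765) was listed in 8 libraries. It stood at 42.1 and 67.2 before treatment, 32.2 in library 2 after 2 h, 37.5 and 64.5 after 6 h, 45.9 in library 1 at 12 h, and 74.9 and 15.7 at 24 h. The 24 h libraries thus held both the highest and the lowest percentile of the 8. By rank from the top of the list they held neither. Library 2 at 0 h then stood highest (3832, against 3909 in library 1 at 24 h). Library 2 at 2 h stood lowest (9673, against 9013 in library 2 at 24 h). No GATA letters and no E-box CACGTG lay within 100 bp of its centre.

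Library 1 at 2 h, which lacked the Myc start region, instead listed a pair of summits inside Myc that no other library had. They lay in exon 2 (chr15:61987507-61988278, summit at 61987729) at rank 41 of 16115 peaks and in exon 3 (chr15:61989346-61990350, summit at 61989570) at rank 63, percentiles of 99.7 and 99.6. The exon 2 summit stood 0.3 kb from another annotated Myc start. Counting every annotated start, a summit lay within 1 kb of a Myc start in 9 libraries, this one included. Among the 8368 regions found in 1 library only, the pair took positions 1 and 2 by percentile. Of the 878 regions found in that library alone, they were the only 2 at or above the 95th percentile. What made them was not tested.

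A region in a Pvt1 intron 173.7 kb downstream of Myc was listed in 9 libraries. Its percentile was 99.2 and 96.8 before treatment, 91.1 and 92.5 after 2 h, 83.7 and 96.1 after 6 h, 88.9 and 78.0 by 12 h, and 59.2 in library 1 at 24 h, with library 2 not listing it. Both 0 h libraries lay above all others. A fit chosen after seeing the data, over the 9327 regions in at least 8 libraries with a missing region ranked last, put 11 members to the test and called none at 24 h (0% called), with a difference of -2.90 ± 0.572 (SE, limma adjusted p = 0.124). With the replicate number as a block the SE was 0.523 and the limma adjusted p 0.0247, when 0.107% of regions were called, and as a linear trend over hours the slope was -0.106 ± 0.0196 per hour (limma adjusted p = 0.0421, 0.0751% called). Leaving out either 0 h or either 24 h library from the blocked fit ended the call (limma adjusted p from 0.115 to 0.699), and without library 2 at 24 h, which did not list the region, the difference was -2.20 (limma adjusted p = 0.294). In that blocked fit the Ahi1 region at 106.0 kb had an adjusted p of 0.0711 (limma, difference -2.10 ± 0.478, SE), the region 67.7 kb upstream of Myb 0.108 and the one at 60.6 kb 0.351.

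**Figure D3:**
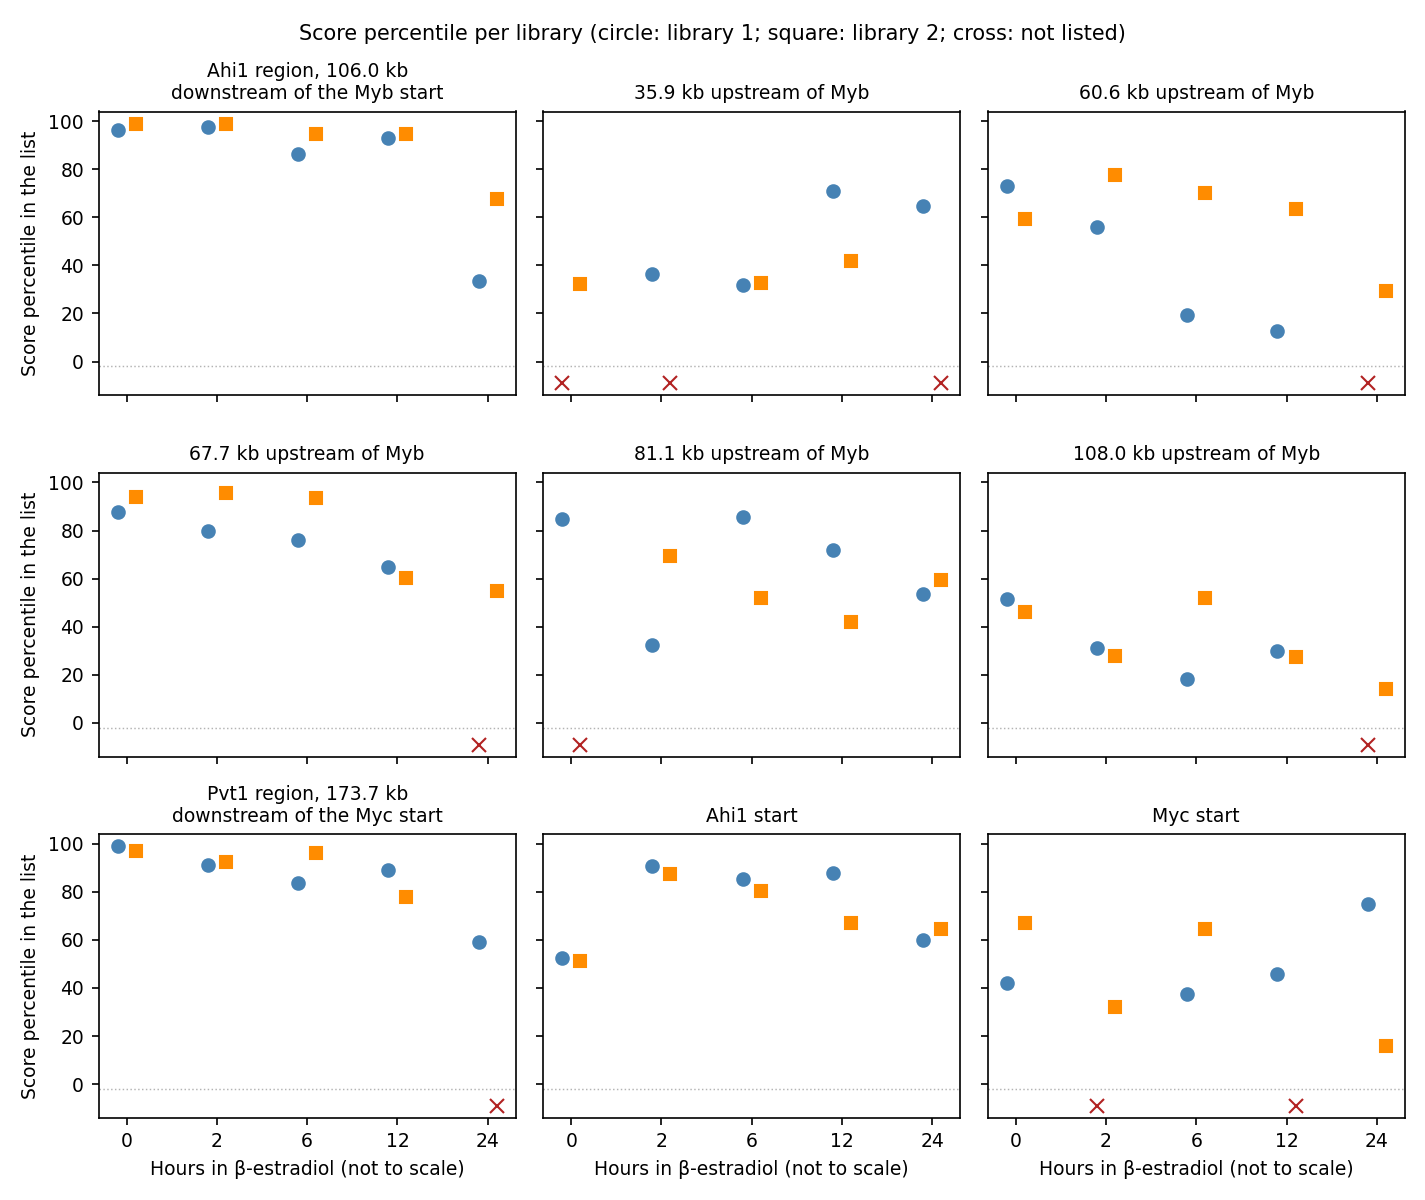
Score percentile (y axis) by hours in β-estradiol (x axis, not to scale) for 9 regions, with circles for library 1, squares for library 2 and a cross below the dotted line where a library did not list the region. At 24 h the Ahi1 region at 106.0 kb, the Pvt1 region at 173.7 kb and the Myb regions at 67.7 and 108.0 kb stand below all their earlier values or are missing, the Ahi1 start stands lowest at 0 h (52.5 and 51.3), and the Myc start runs from 15.7 to 74.9 with no order in time. By rank from the top of the list, the region at 108.0 kb (9166 in library 2 at 24 h) stood inside its earlier range (6250 to 11594).

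Among the other Pvt1 regions, the one at 120.3 kb (chr15:62105367-62106013) was listed at 52.8 and 15.5 at 2 h and at 2.9 in library 1 at 12 h, and nowhere else. The region at 235.9 kb (chr15:62220966-62221694), the third member in all 10 libraries, stood at 43.0 and 86.3 at 0 h and at 50.5 and 61.1 at 24 h, so that the later values lay between the earlier ones (difference -0.34 ± 0.716, SE, limma adjusted p = 1). At 237.9 kb (chr15:62222983-62223692) the percentiles were 77.7 and 44.7 before treatment, 27.0 and 73.5 after 2 h, 62.9 in library 2 at 6 h, and 53.4 and 30.6 at 12 h, with neither library at 24 h. The region at 343.3 kb was in 9 libraries, at 31.2 to 83.6.

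From the last Pvt1 region in 2 or more libraries, at 343.3 kb, to the next such region, at 1607.7 kb, lay a gap of 1263.6 kb between their edges. Of 20592 such gaps in the genome 451 (2.19%) were longer, and the median gap was 23.3 kb. This gap was picked as the longest around Myc and is set against unselected gaps, so the share does not measure how rare it is. From 1607.7 to 1910.4 kb there were 9 regions, in introns or exons of the noncoding genes Gm41335 and 4930449C09Rik and, for the last, of Gsdmc4. At 1607.7 kb (chr15:63592724-63593466) the percentiles were 68.0 and 49.7 before treatment, 20.2 and 16.6 after 2 h, 53.1 in library 2 at 6 h and 34.4 in library 2 at 12 h. The region at 1751.2 kb (chr15:63736143-63736949) stood at 36.7 and 21.3 before treatment, 54.4 and 47.7 after 2 h, 55.5 in library 2 at 6 h, and 49.7 and 9.8 at 12 h. Neither region was listed in either 24 h library. The region at 1625.9 kb (chr15:63610879-63611655), at 49.0 and 3.1 at 0 h, was in neither library at 6 h but in both at 12 h (47.0 and 54.6) and in library 1 at 24 h (16.1).

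Counted over all 57 member regions, losses outnumbered gains late in the course. At 24 h, 5 members (8.77%) were lost, against 3.51% of all 28981 regions, and none was gained, against 1.71%. Coding starts made up 10.5% of the members and 35.6% of the other regions. The shares of gains and losses, here and below, were not matched for this. The 5 were the Myb start, the Ahi1 intron region 191.4 kb downstream of the Myb start (chr10:20969330-20969924, at 66.7 and 31.8 at 0 h) and the Myc regions at 237.9, 1607.7 and 1751.2 kb. Cutting every list to the size of the shortest left the same 5 lost, 15.2% of the members then present, against 3.80% of all regions. Leaving out 1 of the 4 libraries at a time gave 6 to 12 losses at 24 h. All 5 stayed among them by construction, since dropping a library only loosens the rule. Without library 2 at 0 h there were 12 (21.4%, against 11.5% of all regions), without library 1 at 24 h 8 (14.3%, against 7.64%), without library 2 at 24 h 8 (14.0%, against 5.16%) and without library 1 at 0 h 6 (10.7%, against 6.76%).

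Earlier time points gave few calls. At 2 h, 2 members were gained (2.67% of all regions were), the Pvt1 region at 120.3 kb and an Hbs1l intron region 173.9 kb upstream of the Myb start (chr10:21334528-21335343, at 17.9 and 40.9 at 2 h), and 1, the region at the Myb start, was lost (1.15%). At 6 h, 1 was gained (4.08%), the Ahi1 intron region at 93.7 kb (chr10:21066947-21067589, at 48.3 and 26.1), and 1 was lost (0.759%), the Myc region at 1625.9 kb. At 12 h none was gained (2.47%) and 1 was lost (1.88%), the Myb start. Each of these calls rests on 0 to 2 of the 57 members.

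The mean number of summits listed per library was lowest at 24 h in all 3 windows, without passing a test over the course.

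**Figure D4:**
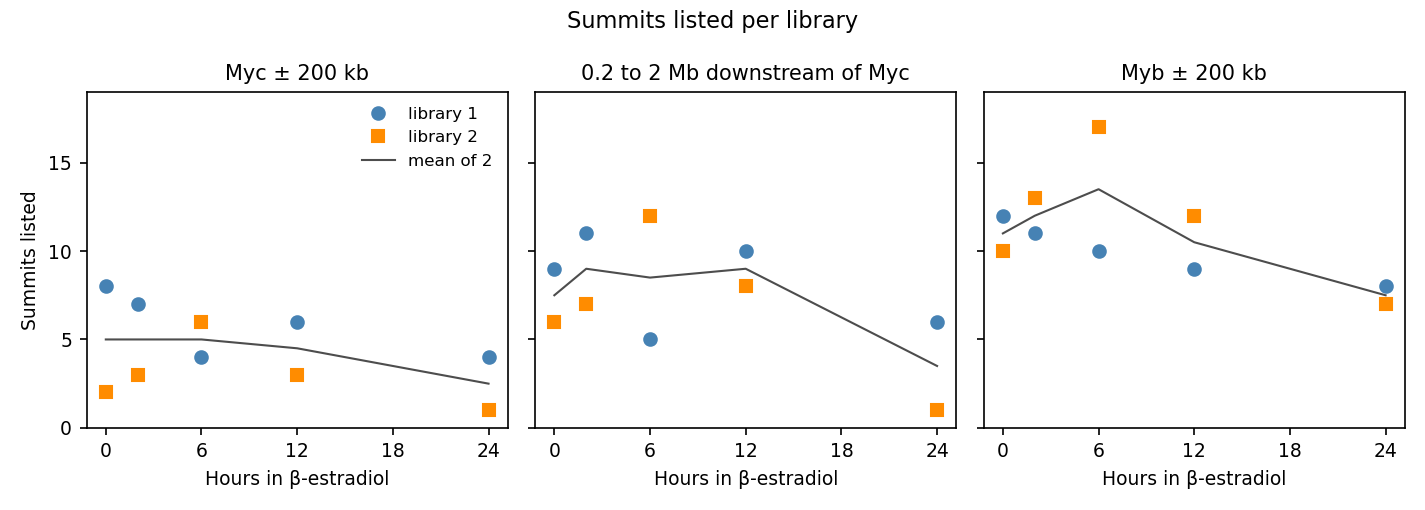
Summits listed per library (y axis) in the Myc window, the stretch 200 kb to 2 Mb downstream of Myc and the Myb window, by hours in β-estradiol (x axis), with circles for library 1, squares for library 2 and a line through the mean of each time point. The means at 24 h are 2.5, 3.5 and 7.5, below those of 0 h (5.0, 7.5 and 11.0).

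In the Myb window the counts were 12 and 10 before treatment, 11 and 13 after 2 h, 10 and 17 after 6 h, 9 and 12 by 12 h, and 8 and 7 at 24 h, so both 24 h libraries lay below the 8 others. In the Myc window they were 8 and 2, 7 and 3, 4 and 6, 6 and 3, and 4 and 1, and far downstream 9 and 6, 11 and 7, 5 and 12, 10 and 8, and 6 and 1, with 24 h inside the earlier range in library 1. Against hours over the 10 libraries, Pearson's r was -0.588 for Myb (Spearman's rho -0.557), -0.426 for Myc (rho -0.311) and -0.520 for the far stretch (rho -0.296). By two-sided permutation the p-values were 0.0761, 0.222 and 0.132 for r and 0.101, 0.383 and 0.407 for rho, which adjusted over the 3 windows gave 0.197, 0.222 and 0.197 and 0.303, 0.407 and 0.407. Without the pair of 24 h libraries, the ones farthest from the median hour, r was -0.0936, -0.0942 and 0.167, so what relation there was rested on them. The list was shortest in library 2 at 24 h, which held the fewest summits in all 3 windows. Over lists cut to equal size r was -0.626, -0.366 and -0.510 in the same order.

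Genes that work with MYC and MYB were mostly listed at their starts throughout. Of 23 genes of the MYC-MAX network and the MYB family, 16 (69.6%) had a summit within 1 kb of a start in all 10 libraries, against 26.4% of coding genes, and none was gained or lost at any time point. Among all 21829 coding genes, starts were gained for 0.632%, 1.04%, 0.738% and 0.444% at the 4 later time points in order, and lost for 0.353%, 0.0412%, 0.316% and 0.541%. Those 21829 include 12110 with no start summit in any library, which could be neither gained nor lost. In no library was a summit listed at Mycn, the MYC paralogue of the embryo and nervous system, or at Mlxipl, the glucose-responsive partner of MLX. Mycl, another MYC paralogue, was listed in 1 library, at 2 h. The remaining 4, named after their values were seen, were Mlx in 7 libraries, Zbtb17, whose product MIZ1 binds MYC, in 6, and Lin9 and Lin54, subunits of the complex that works with MYBL2, in 8 and 9.

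The GATA letters were common in the members. Of the 51 member regions over 1 kb from a coding start, 28 (54.9%) held AGATAA or TGATAA on either strand within 100 bp of the centre, against 39.1% of 18621 other such regions. Of all 28981 regions 28.0% held them. The TAL1-GATA composite, which contains a GATA match, was in 3 of the 51 (5.88%, against 7.53%), and the RUNX letters TGTGGT were in 11 (21.6%, against 20.7%). GC content was alike, with medians of 47.8% and 48.8%. Of the 5 regions lost at 24 h, the Myb start and the one at 1607.7 kb held no GATA letters, those at 237.9 kb and 191.4 kb held 2 matches and the one at 1751.2 kb held 1.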

How the data were processed

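ATAC-seq measured open chromatin in G1E-ER4 cells at 5 time points, with 2 libraries each, grouped and numbered by their titles. Per the labels and methods, the authors kept reads with a unique position in mm10 and called peaks with MACS2 without a fragment model in each library alone. The methods name Bowtie2 as aligner, whereas the submitters' processing notes list Bowtie 1.0.0 (with Picard), so the aligner is not settled. No Tn5 shift of the reads is stated, which leaves summits uncertain by some bases. The deposited lists give summits of 1 bp and a score, −log10 of the q-value in that library, and no read counts, so no interval that needs a depth is given. The lowest scores correspond to a q-value of about 0.05.

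Peaks on chromosomes 1 to 19, X and Y were used. Summits were extended by 250 bp on each side and merged, and genes were taken from GENCODE M21. Members and gene lists were chosen with earlier results of these data known, and nothing here is independent support of them. Members named are those gained or lost, those in all 10 libraries, and those at the starts of Myc, Myb and Hbs1l. The other regions described, among them the row upstream of Myb and the Pvt1 region at 173.7 kb, were chosen after their values were seen. A region was gained when both libraries of a later time and neither at 0 h listed it, and lost in the opposite case. Ranks among shared regions, as normal scores, were fitted with limma 3.58.1 (R 4.3.3) with time as a factor and Benjamini-Hochberg adjustment over all regions (threshold 0.05). Summit counts were tested by permutation with 100000 resamples (scipy 1.17.1). The fit was tested on simulated data. A marker gene and a sequence window are not reported here. Libraries of the same replicate number deviated together in all 10 pairs of time points (correlations over 6234 regions from 0.177 to 0.359). The paper reports 2 independent experiments but does not tie them to replicate numbers. The labels state no pairing, and what linked these libraries was not tested. Fits with the replicate number as a block are given where they change a call, for the Ahi1 region at 106.0 kb and for the counts of unadjusted p. Sequence windows of 201 bp came from GRCm38.p6, the same assembly as mm10. Alternatives were lists of equal size, a score of at least 2, extensions of 100 and 500 bp, starts within 500 bp, percentiles or log2 of the score, a linear trend, a replicate block and leaving out each library. The fits over regions in at least 8 libraries were chosen after seeing the data.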

Additional observations from a re-analysis of the deposited data

How the results depend on the processing

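Depth is unknown and each time point has 2 libraries, so a region not listed may lie just under the threshold of its list. Calls of gain and loss moved most when 1 library decided alone. Leaving out 1 library at a time, gains ran from 2 to 8 at 2 h (4.17% to 11.4% of all regions), 2 to 13 at 6 h (5.86% of all regions at the least), 1 to 6 at 12 h (3.76% to 11.7%) and 0 to 3 at 24 h (2.61% to 12.7%), and losses from 1 to 6 at 2 h (3.13% to 7.44%), 1 to 6 at 6 h (1.14% to 5.92%), 2 to 6 at 12 h (3.86% to 8.78%) and 6 to 12 at 24 h (5.16% to 11.5%). The 13 gains at 6 h, 23.2% of the members, came without library 1 at 6 h, when 5679 of 28329 regions in all were gained. With lists of equal size, which left 33 members, gains were 0 at 2 h and 0 at 6 h (2.18% and 2.20% of all regions), and losses were 2 at 2 h and 2 at 12 h (2.20% and 2.51%). With summits extended by 500 bp, 1 member was gained and 0 were lost at 2 h (2.69% and 1.16% of all regions), since the Myb start and the Pvt1 region at 120.3 kb then each merged with a neighbour. The 5 losses at 24 h were the same 5 with equal lists, a score of at least 2, and extensions of 100 and 500 bp.

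For summit counts against hours, leaving out 1 library gave r from -0.632 to -0.170 for Myc, -0.620 to -0.185 for the far stretch and -0.775 to -0.431 for Myb, where the Myb value passed without library 2 at 6 h (r = -0.775, permutation adjusted p = 0.0471). With the replicate block r was -0.560, -0.534 and -0.624, each at a permutation adjusted p of 0.144. In the rank fit of members at 24 h, 0 were called in the planned fits, including the replicate block and each library left out, and 1 in the fits over regions in at least 8 libraries with the replicate block or the linear trend. With that block and 1 library left out, 0 to 1 were called. The difference at 235.9 kb ran from -1.27 to 0.574 when 1 library was left out and reversed without library 2 at 0 h (0.574, and 0.536 and 0.587 over regions in at least 8 libraries without and with the block) and without library 1 at 24 h (0.00197 and 0.0552), and that at the Ahi1 start reversed in the blocked fit over regions in at least 8 libraries without library 2 at 24 h (-0.0636). The causes were not tested. Apart from these, the replicate block changed no call, and the 23 network genes had 0 gains and 0 losses at 24 h under every alternative run.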

Other observations

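Beyond GATA, the members' letters differed most from other regions for CTCF and for KLF factors. The CTCF letters, CCA and GGC around AG with 2 bases of any kind on either side, were in 1 of 51 members over 1 kb from a coding start (1.96%), the Pvt1 region at 349.4 kb, against 13.8% of 18621 other such regions. The KLF letters CCNCACCC were in 10 (19.6%), against 9.92%. The ETS letters AGGAAGT or CGGAAGT were in 5 (9.80%, against 11.0%), the AP-1 letters TGANTCA in 3 (5.88%, against 8.90%) and the MYB letters TAACNG in 11 (21.6%, against 23.0%). These shares were not tested, and a match of letters is not a bound site.

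Member regions were listed less widely than regions elsewhere, with 3 of 57 (5.26%) in all 10 libraries against 21.5% of the 28924 others. Coding starts made up 10.5% of the members and 35.6% of the others, and away from coding starts the shares in all 10 libraries were 3.92% and 6.52%. In 1 library only were 19 members (33.3%, against 28.9%), and apart from the pair in the Myc exons their percentiles ran from 0.2 to 40.4.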
